A study of Mus musculus with 20 samples.

Results

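The genes described here are 10 of the JAK-STAT cytokine pathway: the transcription factors Stat3, Stat4, Stat5a, Stat5b and Stat6, the kinase Jak1, and the feedback inhibitors Socs1, Socs2, Socs3 and Cish. They were chosen by symbol, and all 10 were found in every library among the 25933 gene symbols of the series. The values come from bulk RNA-seq of TCRαβ+CD8αα+ intraepithelial lymphocytes (IELs), T cells that sit between the epithelial cells of the mouse gut.

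Cytokine receptors lack a kinase of their own and work through bound Janus kinases such as JAK1, which phosphorylate STAT proteins so that they enter the nucleus and switch on target genes. SOCS proteins and CIS, the product of Cish, are themselves products of STAT target genes, and they damp the receptors and kinases that induced them. In CD8αα+ IELs the pathway is best known downstream of IL-15, a cytokine made by the gut epithelium that signals through IL-2Rβ, the common γ chain, JAK1, JAK3 and STAT5 and keeps these cells alive.

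The 20 libraries came from mouse small intestine, by their labels. RFP+CD160+ cells (RFP+ below, 3 libraries) and RFP-CD160- cells (RFP-, 3 libraries) were sorted from unchallenged Bcl6-RFP/RFP reporter mice, in which RFP reports Bcl6. Total CD8αα+ IELs came from Bcl6fl/fl Cd8cre mice and their Bcl6fl/fl littermates, from Prdm1fl/fl Cd8cre mice and their Prdm1fl/fl littermates, and from Tcf7fl/fl Cd8cre mice and their Tcf7fl/fl littermates, 2 libraries a group, called KO and WT below. All WT mice carried the floxed alleles without Cd8cre, so an effect of the Cre transgene cannot be told apart from that of the deletion, and the labels do not say which Cd8 element drives Cre. Bcl6, Prdm1 (which encodes BLIMP1) and Tcf7 (which encodes TCF1) are transcription factors that steer T cells between memory-like and effector states, and the study set the roles of BCL6 and BLIMP1 in IELs against each other. A further 2 libraries, labelled as Bcl6-RFP/RFP, have no stated sort and enter no comparison. Their titles begin with LI, where those of the RFP+ and RFP- libraries begin with SI, although all are labelled small intestine, so the labels leave their tissue in doubt and their values are not compared with those of the sorted groups. The labels give neither ages nor the number of animals, and nothing says that libraries of a group came from separate animals, so p-values measure the spread between these libraries, which may be technical.

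Depth, in units of 1000000 reads recovered from the deposited values, was 14.5 to 16.9 in RFP+, 16.5 to 17.4 in RFP-, 22.1 to 23.0 in the Bcl6, 30.1 to 38.4 in the Prdm1 and 41.0 to 48.2 in the Tcf7 experiment. Values are FPKM, reads scaled to transcript length and library depth, in the RFP, LI and Bcl6 libraries, and reads divided by a size factor (scaled reads below), with no gene length in them, in the Prdm1 and Tcf7 libraries. Of the markers of the labelled cell type, Cd8a lay at 542 to 612 FPKM in RFP+ and 871 to 946 FPKM in RFP- libraries, beside at most 1.16 and 1.27 FPKM of Cd8b1 and at most 0.0881 and 0.0451 FPKM of Cd4. The 12 CD8αα+ IEL markers read were themselves far from equal between the sorted groups: they summed to 4375 to 4749 FPKM in RFP+ and 26329.6 to 29936 FPKM in RFP- libraries. Of the 12, limma called 9 lower in RFP+, Gzma (log2 fold change -7.07), Gzmb (-5.31) and Cd8a itself (-0.67) among them, and 2 higher, Cd160, on which the cells were sorted, and Cd69. Their part in the results below was not tested. Of 5 γδ T cell markers, only Sox13 could be read, at no more than 0.0961 FPKM in RFP+ and 0.153 FPKM in RFP- libraries. Trdc, Trgc1, Trgc2 and Trgc4, and Trac of the CD8αα+ IEL list, were not found by symbol in any library. The TCRαβ part of the label was therefore not checked. The sort and the deletions were visible in their own genes. Bcl6 stood at 13.7, 14.2 and 18.0 FPKM in RFP+, against 3.44, 3.30 and 3.59 FPKM in RFP-. Prdm1 stood at 639.9 and 362 scaled reads in Prdm1 KO, against 6092 and 5117 in WT, and Tcf7 at 7757 and 7993 scaled reads in Tcf7 KO, against 15430.3 and 15606 in WT. The Bcl6 label was checked only weakly, because Bcl6 was low in both groups, at 0.550 and 0.638 FPKM in KO against 0.772 and 0.735 FPKM in WT.

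In RFP+ cells the SOCS genes moved furthest, and in opposite directions. Socs3 and Socs1 were higher than in RFP- cells, Socs2 was close to absent, and Cish did not pass the test. Stat5a and, less, Stat5b were higher, Stat4 was slightly lower, and Stat3, Stat6 and Jak1 did not pass. In all, 6 of the 10 genes passed limma's test at a Benjamini-Hochberg adjusted p under 0.05, 4 higher and 2 lower, in a comparison in which 38.0% of the 9717 genes tested passed. The groups did not overlap for 6 of the 10, against 51.9% of all genes tested, so neither count stands far from the background. The median log2 fold change was 0.21 over the 10 genes and -0.025 over all genes tested.

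Socs3 encodes the inhibitor that blocks signalling through gp130, the shared IL-6 family receptor chain, by binding the receptor and JAK. It had 26.7, 24.3 and 52.7 FPKM in RFP+ libraries, against 8.15, 5.33 and 4.96 FPKM in RFP- libraries. Every RFP+ library lay above every RFP- library, and the third RFP+ library lay far above the other two. The means were 34.6 ± 15.8 and 6.15 ± 1.74 FPKM (SD, n = 3 each), a 5.62-fold ratio, and the log2 fold change, which is on the log2(FPKM + 1) scale here and below, was 2.26 (SE 0.28, adjusted p = 0.000524). A bulk value sums over cells, so fewer cells with a transcript and less RNA per cell cannot be told apart. The 2 LI libraries had 50.9 and 54.1 FPKM.

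Socs2 encodes an inhibitor best known for restraining growth hormone signalling through STAT5. It had 0.140, 0.108 and 0.0931 FPKM in RFP+ libraries, against 2.08, 2.59 and 2.69 FPKM in RFP- libraries. These values stand for 15 to 20 reads in each RFP+ library and 328 to 446 in each RFP- library, and the groups were far apart. The gene passed the filter on low values only through RFP- cells, so it had to differ to be tested. The log2 fold change was -1.63 (SE 0.11, adjusted p = 1.65e-05). The added 1 shrinks it: the ratio of the means was 0.0464, and edgeR on the recovered reads, an analysis added after the data were seen, gave -4.41 (adjusted p = 1.64e-07). In LI libraries Socs2 was at 0.314 and 0.284 FPKM.

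Socs1 encodes the inhibitor that binds JAK kinases directly and is needed to restrain interferon-γ and common γ chain signals in T cells. It had 13.3, 14.8 and 14.7 FPKM in RFP+ libraries, against 5.60, 8.62 and 9.80 FPKM in RFP- libraries. The RFP+ values lay close together and above all RFP- values. The log2 fold change was 0.79 (SE 0.16, adjusted p = 0.00646), and the LI libraries had 26.6 and 25.1 FPKM. Cish, whose product CIS is induced by STAT5 and restrains IL-2 and IL-15 responses in lymphocytes, had 12.5, 13.3 and 8.92 FPKM in RFP+ libraries, against 6.44, 10.5 and 10.6 FPKM in RFP- libraries. The groups overlapped, and the log2 fold change of 0.31 (SE 0.19) did not pass (adjusted p = 0.238). It was 0.10 without the first RFP- library, 0.21 without the second RFP+ library and 0.47 without the third, and passed in none of the 14 alternatives. LI libraries had 10.8 and 10.0 FPKM of Cish.

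**Figure D1:**
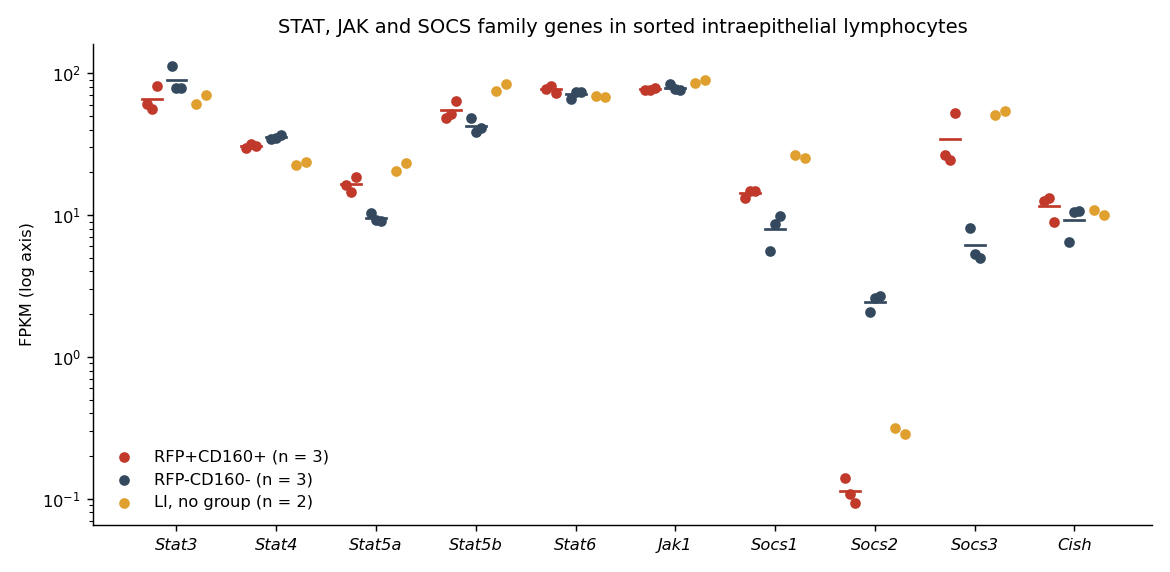
FPKM of the 10 genes in each RFP+CD160+ library (red, 3), RFP-CD160- library (dark, 3) and LI library (yellow, 2), on a log axis, with a bar at each sorted group's mean. Socs3, Socs1 and Stat5a lie above the RFP- points in every RFP+ library, Socs2 lies below them in every RFP+ library, and Jak1 and Stat6 points overlap.

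The promoters of Socs3 and Cish are shown because they are the members of this set whose windows held the STAT motif TTCNNNGAA, and both passed a test in this series. The windows run from 250 bases before to 50 bases after the RefSeq transcript start (RefSeq, GRCm38.p6), 5′ to 3′ on the gene's strand, with motif matches in capitals. Socs3 is chr11:117969317-117969616 on the minus strand, and Cish is chr9:107296409-107296708 on the plus strand.
Socs3: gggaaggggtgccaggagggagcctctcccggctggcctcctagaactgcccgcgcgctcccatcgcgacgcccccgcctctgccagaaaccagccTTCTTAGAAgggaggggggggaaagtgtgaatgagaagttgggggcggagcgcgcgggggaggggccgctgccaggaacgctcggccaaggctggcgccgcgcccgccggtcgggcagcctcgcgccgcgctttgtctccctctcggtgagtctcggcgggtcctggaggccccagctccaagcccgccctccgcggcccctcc
Cish: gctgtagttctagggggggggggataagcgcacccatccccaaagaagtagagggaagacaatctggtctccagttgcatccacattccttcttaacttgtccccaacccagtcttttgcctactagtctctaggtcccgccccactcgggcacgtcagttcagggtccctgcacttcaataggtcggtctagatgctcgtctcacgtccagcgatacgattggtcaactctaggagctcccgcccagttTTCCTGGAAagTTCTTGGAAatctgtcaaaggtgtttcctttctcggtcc

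The Socs3 window held 1 match, TTCTTAGAA, whose first base is at -154 from the start, and the Cish window held 2, TTCCTGGAA at position 1 of the transcript and TTCTTGGAA at position 12. The pattern TTCNNNGAA is its own reverse complement, so a search of either strand finds the same places, and 8.30% of the 32851 RefSeq windows of this length held at least 1 match. Windows were found for 9 of the 10 genes (12 windows). Counted by window, as in that share, 2 of the 12 held it, and they belonged to 2 of the 9 genes. A BCL6 motif, TTCCTNGAA, matched once, in Cish, on the same bases as the first STAT match, and 1.59% of all windows held it. The TCF motif CTTTGA, searched on both strands, was in the windows of Cish and Stat5a, and in 16.0% of all windows. Neither the STAT6 motif, TTC and GAA parted by any 4 bases (6.95% of all windows), nor the BLIMP1 motif GTGAAAG (4.24%) was in a window of these genes. A match is a string of letters in this window and shows no binding.

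Among the STAT genes, the STAT5 pair moved most. Stat5a and Stat5b encode close homologues that carry the signals of IL-2, IL-7 and IL-15. Stat5a had 16.2, 14.4 and 18.7 FPKM in RFP+ libraries, against 10.3, 9.27 and 9.02 FPKM in RFP- libraries, with no overlap (log2 fold change 0.72, SE 0.093, adjusted p = 0.000610). Stat5b, at a higher level, had 48.5, 51.7 and 63.5 FPKM in RFP+ libraries, against 48.5, 38.7 and 40.9 FPKM in RFP- libraries. The lowest RFP+ value, 48.55 FPKM, was barely above the highest RFP- value, 48.50 FPKM. Its log2 fold change of 0.34 (SE 0.11) passed narrowly (adjusted p = 0.0452), and the call was lost without the third RFP+ library (0.23, adjusted p = 0.107), without the second (0.38, 0.0738), without the second RFP- library (0.28, 0.135) or without the third (0.32, 0.113). LI libraries had 20.5 and 23.1 FPKM of Stat5a and 75.1 and 83.7 FPKM of Stat5b.

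The ratio of Stat5a to Stat5b inside a library does not depend on how libraries are scaled. It ran from 0.280 to 0.333 in RFP+ and from 0.211 to 0.240 in RFP- libraries, without overlap. On the log2 scale the difference was 0.43, and the exact two-sided permutation test gave p = 0.1, the smallest that 3 libraries against 3 allow. In Bcl6 KO the ratio lay at 0.334 to 0.357, against 0.384 to 0.418 in WT, also without overlap (log2 difference -0.21, exact permutation p = 0.333, the smallest that 2 against 2 allow). In Prdm1 KO the ratio of scaled reads was 0.320 to 0.367, against 0.300 to 0.356 in WT (log2 difference 0.068, exact permutation p = 0.667). In Tcf7 KO it was 0.333 to 0.353, against 0.322 to 0.351 in WT (log2 difference 0.029, exact permutation p = 0.667), so the groups overlapped in both of these experiments. Stat5a (plus strand) and Stat3 (minus strand) overlap by 72 bases at their 3′ ends on chromosome 11, and whether counting used strand is not given in the sources used here, so some of their reads may be shared.

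**Figure D2:**
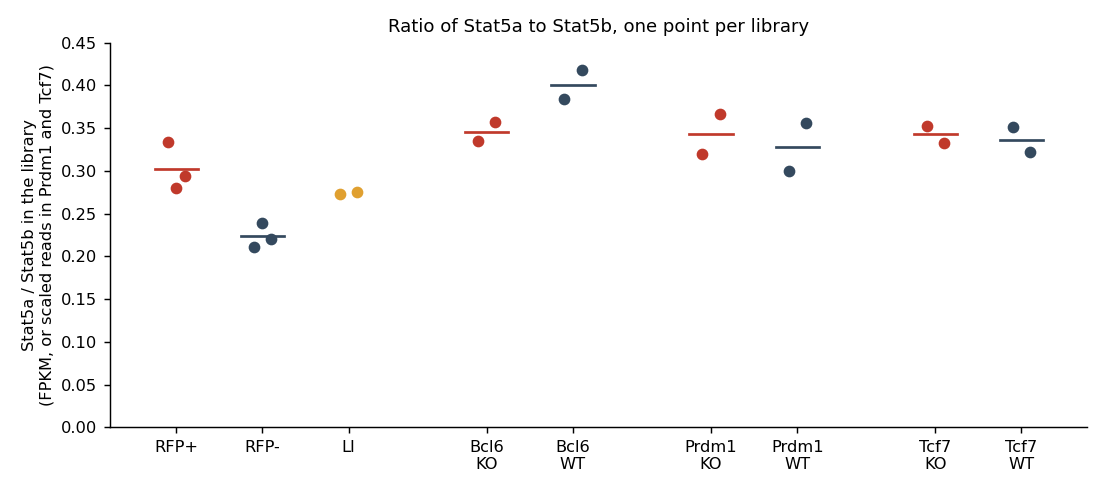
Ratio of Stat5a to Stat5b in each library, from FPKM in the RFP, LI and Bcl6 libraries and from scaled reads in the Prdm1 and Tcf7 libraries, with a bar at each group's mean. Because FPKM divides by gene length and scaled reads do not, levels compare only within an experiment. RFP+ points (0.280 to 0.333) lie above RFP- points (0.211 to 0.240), and Bcl6 KO points lie below their WT points.

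Stat4, which carries IL-12 signals towards interferon-γ production, had 29.7, 31.9 and 30.5 FPKM in RFP+ libraries, against 34.2, 34.7 and 36.9 FPKM in RFP- libraries. The groups did not overlap, and the log2 fold change was -0.19 (SE 0.053, adjusted p = 0.0215). The call depended on scaling: with library totals made equal, which moved the median of all genes from -0.025 to 0.12, it was -0.039 (adjusted p = 0.624), and after quantile normalization -0.10 (0.216). It was also lost without the first RFP+ library (-0.17, adjusted p = 0.0793), without the third (-0.19, 0.0521), without the second RFP- library (-0.21, 0.0532) or without the third (-0.16, 0.0757). LI libraries had 22.6 and 23.7 FPKM.

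Stat3, which transmits IL-6, IL-10, IL-21 and IL-27 signals, had 60.6, 56.0 and 81.2 FPKM in RFP+ libraries, against 113, 78.8 and 78.3 FPKM in RFP- libraries. The third RFP+ library reached into the RFP- range, and the log2 fold change of -0.44 (SE 0.17) did not pass (adjusted p = 0.0774). Without that library it was -0.60 and passed (adjusted p = 0.0239), without the second RFP+ library it was -0.33 (0.218), and without the first RFP- library it was -0.27 (0.183). With library totals made equal it was -0.28 (adjusted p = 0.171). Stat6, the mediator of IL-4 and IL-13 signals, had 77.1, 81.4 and 72.4 FPKM in RFP+ libraries, against 65.7, 73.4 and 73.8 FPKM in RFP- libraries (log2 fold change 0.12, SE 0.067, adjusted p = 0.204). Jak1 had 76.4, 76.6 and 78.7 FPKM in RFP+ libraries, against 84.2, 77.1 and 75.7 FPKM in RFP- libraries, and its log2 fold change was -0.031 (SE 0.055, adjusted p = 0.683). Both genes overlapped between the groups. Equal library totals turned the Jak1 value to 0.13 (adjusted p = 0.0475) and made that of Stat6 0.27 (adjusted p = 0.0196), and the sign of the Jak1 value was also positive after quantile normalization (0.042, adjusted p = 0.489) and without the first RFP- library (0.015, adjusted p = 0.825). LI libraries had 60.5 and 70.2 FPKM of Stat3, 68.6 and 68.4 FPKM of Stat6, and 85.8 and 88.9 FPKM of Jak1.

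The genes also varied together inside the sorted groups. The third RFP+ library and the first RFP- library each had the highest Stat3, Stat5b and Socs3 and the lowest Cish of their group. Both also had the lowest summed level of 10 immediate-early and stress genes (Fos, Fosb, Jun, Egr1, Egr2, Nr4a1, Ier2, Dusp1, Atf3 and Hspa1a, a list chosen after the values were seen), at 1573 FPKM where the other RFP+ libraries had 2029 and 2373 FPKM, and at 608 FPKM where the other RFP- libraries had 962 and 985 FPKM. Ier2 did not follow the sum, being highest in both of these libraries, and Dusp1 followed it only among RFP- libraries. The other genes of the list were lowest in both of these libraries. Between the groups this sum was 1573 to 2373 FPKM in RFP+ and 608 to 985 FPKM in RFP-, higher where Socs3 was higher. Inside each group the relation was the reverse, with the lowest sum in the library with the highest Socs3. The part of these genes in the result was not tested.

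Markers of other cell types were also read in the sorted groups. The summed level of 14 epithelial markers was 52.9 to 77.7 FPKM in RFP+ and 65.3 to 192 FPKM in RFP- libraries, with overlap. The highest sum was that of the second RFP- library, and the other RFP- libraries had 65.3 and 95.4 FPKM. Of the 10 tested, 2 were called lower, Epcam and Krt18. Krt18 (0.534 FPKM in RFP+ and 2.42 FPKM in RFP- on average) passed the filter only through RFP- cells, so it had to differ to be tested. The summed level of the myeloid list (5 of 8 markers in the table) was 13.4 to 19.1 FPKM in RFP+ and 37.2 to 54.1 FPKM in RFP- libraries, with both tested markers, Itgax and Cd68, called lower and the defining Csf1r at most 0.0347 and 0.0312 FPKM. B and plasma cell markers summed to 13.8 to 15.0 FPKM in RFP+ and 17.1 to 19.9 FPKM in RFP-. CD4 and CD8αβ T cell markers summed to 4.25 to 7.13 FPKM in RFP+ and 2.13 to 2.51 FPKM in RFP-, the difference being mostly Cd40lg. The part of these markers in the results was not tested.

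Measured per length, Jak1, Stat6 and Stat3 had the highest means of the 10 transcripts in both sorted groups and Socs2 the lowest. In RFP+ cells the ranges of Stat3 and Stat5b overlapped. In RFP+ cells the order of mean FPKM was Jak1 (77.2), Stat6 (77.0), Stat3 (66.0), Stat5b (54.6), Socs3 (34.6), Stat4 (30.7), Stat5a (16.4), Socs1 (14.3), Cish (11.6) and Socs2 (0.114). In RFP- cells it was Stat3 (89.9), Jak1 (79.0), Stat6 (70.9), Stat5b (42.7), Stat4 (35.3), Stat5a (9.52), Cish (9.18), Socs1 (8.01), Socs3 (6.15) and Socs2 (2.46). Socs3 ranked 5 of the 10 in RFP+ and 9 in RFP- cells. Ranges overlapped between neighbours from Jak1 down to Stat4 and between Stat5a and Socs1 in RFP+ cells, and between Stat3 and Jak1 and from Stat5a down to Socs3 in RFP- cells, so the order inside those runs is not resolved.

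In Bcl6 KO IELs, Socs3 and Socs1 lay at lower values than in littermates and Socs2 at higher ones, each the opposite sign to its RFP+ change, but none of the 10 genes passed the test. limma called 0 of 10, in a comparison in which it called 0.418% of the 9573 genes tested, with Socs1, Socs2 and Socs3 under an unadjusted p of 0.05. On recovered reads, edgeR also called 0 and DESeq2 called 2, Socs1 and Socs3. The groups did not overlap for 9 of the 10 genes, against 33.0% of all genes, 8 of them lower in KO and Socs2 higher. The median log2 fold change was -0.21 over the 10 genes and 0.027 over all genes tested.

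Socs3 had 9.73 and 5.96 FPKM in Bcl6 KO, against 18.5 and 23.5 FPKM in WT. Its log2 fold change was -1.34 (SE 0.23, adjusted p = 0.0622), and over 13 alternatives the adjusted p ran from 6.39e-18 to 0.142, under the threshold in 6 of them. DESeq2 on recovered reads gave -1.45 (adjusted p = 5.82e-05), where edgeR gave the same fold change with an adjusted p of 0.124. Socs1 had 14.6 and 11.1 FPKM in KO, against 22.3 and 25.7 FPKM in WT (log2 fold change -0.86, SE 0.19, adjusted p = 0.165), and DESeq2 gave -0.92 (adjusted p = 0.0132). Both KO values of each gene lay below both WT values, and the tools differed in their calls.

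Socs2 had 2.24 and 2.51 FPKM in Bcl6 KO, against 1.38 and 1.32 FPKM in WT (log2 fold change 0.52, SE 0.19, adjusted p = 0.716). Cish had 7.37 and 5.48 FPKM in KO, against 8.47 and 8.63 FPKM in WT (log2 fold change -0.38, adjusted p = 0.914). Stat5a had 10.6 and 9.98 FPKM in KO, against 13.2 and 13.7 FPKM in WT (log2 fold change -0.36, adjusted p = 0.882). All 3 genes were without overlap and far from the threshold. Stat5b, Stat3, Stat4, Stat6 and Jak1 had log2 fold changes between -0.25 (Stat4) and -0.10 (Jak1), with adjusted p of at least 0.949.

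The summed level of the immediate-early and stress genes was 1420.1 to 1648 FPKM in Bcl6 KO and 2746 to 2984 FPKM in WT, lower where Socs3 and Socs1 were lower. Hspa1a, a heat-shock chaperone, had 128 and 106 FPKM in KO, against 616 and 691 FPKM in WT. The part of this shift in the SOCS values was not tested. Epithelial markers summed to 246 to 279 FPKM in KO and 262 to 287 FPKM in WT, with 1 of 14 called, lower in KO, and myeloid markers to 31.9 to 63.7 FPKM in KO and 28.5 to 35.0 FPKM in WT, with none of 5 tested called by limma.

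In Prdm1 KO IELs, Socs2 fell and Socs3 and Socs1 lay at higher values. Socs2 was the only one of the 10 genes that limma called, in a comparison in which it called 6.84% of the 10969 genes tested. The groups did not overlap for 7 of the 10, against 52.4% of all genes, a share not far above the background. The median log2 fold change was -0.10 over the 10 genes and -0.041 over all genes tested.

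Socs2 had 83.7 and 119.5 scaled reads in Prdm1 KO, against 282 and 376 in WT. The KO values were 0.309 of the WT values on average, and the groups were well apart. The log2 fold change, now on the log2(scaled reads + 1) scale, was -1.69 (SE 0.27, adjusted p = 0.0162), and it passed under all 12 alternatives, between -1.96 and -1.44. Socs3 had 2715 and 2359 scaled reads in KO, against 869 and 1581 in WT (log2 fold change 1.11, SE 0.26, adjusted p = 0.0557). The 2 WT libraries differed widely from each other, though both lay below both KO libraries. Its adjusted p was under the threshold in 7 of 12 alternatives, over a range of 0.000223 to 0.0629. Socs1 had 1434 and 1633 scaled reads in KO, against 771 and 1253 in WT (log2 fold change 0.64, SE 0.22, adjusted p = 0.166).

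The 2 Prdm1 WT libraries also differed in other genes that part the sorted cells: Tcf7 was at 6605 scaled reads in the first and 12467 in the second, and Cd160 at 6555 and 12267, in the same direction as Socs1, Socs2 and Socs3. Without the first WT library the Socs3 log2 fold change was 0.68 and that of Socs1 0.29, and without the second they were 1.54 and 0.99, so that a single library moved both by more than 1.5 times. Epithelial markers summed to 10826 to 17595 scaled reads in KO and 6405 to 6662 in WT, with 9 of 14 called higher in KO, among them Krt8, Vil1 and Krt19. Myeloid markers summed to 6210.4 to 6268 scaled reads in KO and 9809.9 to 12177 in WT, with 1 of 3 tested, Itgax, called lower. Nearly all of this sum was Itgax, at 5995 and 5809 in KO, against 11973 and 9598 in WT. Lyz2 lay the other way, at 92.2 and 250 in KO, against 40.3 and 44.0 in WT, and Cd68 overlapped. CD4 and CD8αβ T cell markers summed to 269 to 455 in KO and 183 to 247 in WT, with none of 2 tested called by limma. CD8αα+ IEL markers summed to 362754 to 370039 scaled reads in KO and 835313 to 881202 in WT, with 3 of 12 called lower, Gzma, Gzmb and Tyrobp. The immediate-early and stress genes summed to 174051 to 220237 scaled reads in KO and 125550 to 128200 in WT, higher where Socs3 was higher. The part of these genes in the SOCS values was not tested.

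No STAT gene, nor Jak1 or Cish, passed the test in Prdm1 KO. Stat5a had 4219 and 3595 scaled reads in KO, against 3492 and 3369 in WT (log2 fold change 0.18, adjusted p = 0.399), without overlap. Stat3 had 27045.5 and 21162 scaled reads in KO, against 30799.8 and 25529.5 in WT (log2 fold change -0.23, adjusted p = 0.494), with overlap. Stat4, Stat6, Jak1, Cish and Stat5b had log2 fold changes between -0.13 (Jak1) and 0.12 (Stat5b), with adjusted p of at least 0.569.

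In Tcf7 KO IELs Cish was the only one of the 10 genes called, and it was higher in KO. limma called 2.72% of the 15210 genes tested there. The groups did not overlap for 7 of the 10 genes, against 41.6% of all genes, and the median log2 fold change was -0.0060 over the 10 genes and 0.0018 over all genes tested. Cish had 6014 and 5973 scaled reads in KO, against 4906 and 4821 in WT. The libraries of each group lay within a narrow range and the groups were apart, with a 1.23-fold ratio of means (log2 fold change 0.30, SE 0.053, adjusted p = 0.00612). The call was lost without either KO library (adjusted p = 0.0755 without the first and 0.0586 without the second), though the fold change stayed between 0.29 and 0.31 in all 12 alternatives.

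Socs2 had 567 and 534 scaled reads in Tcf7 KO, against 368 and 500 in WT (log2 fold change 0.36, SE 0.15, adjusted p = 0.347). Without the first WT library it was 0.14 (adjusted p = 0.769), and without the second it was 0.58 and passed (0.0134). Stat3 had 22359 and 23492 in KO, against 20572 and 21108 in WT (log2 fold change 0.14, SE 0.048, adjusted p = 0.210). Both were without overlap, as were Socs3, at 714 and 705 scaled reads in KO, against 805 and 772 in WT (log2 fold change -0.15, adjusted p = 0.631), and Socs1, at 1214 and 1259.9 in KO, against 1274 and 1269.8 in WT (-0.041, adjusted p = 0.906). The other genes had log2 fold changes between -0.075 (Stat4) and 0.026 (Jak1), with adjusted p of at least 0.596. The immediate-early and stress genes summed to 75776 to 76918 scaled reads in KO and 81593 to 82851 in WT. Hspa1a alone had 20336 and 19710 scaled reads in KO, against 26854 and 26734 in WT. Of the others, Fosb, Nr4a1 and Dusp1 also lay lower in KO and Fos, Jun and Atf3 higher, without overlap. Egr1, Egr2 and Ier2 overlapped, so the lower sum was not a shift of the whole list. Epithelial markers summed to 17770.3 to 18826 scaled reads in KO and 13813 to 14013 in WT, with 3 of 14 called higher. Myeloid markers summed to 18901 to 19506 scaled reads in KO and 20113 to 20311 in WT, with none of 3 tested called by limma. Nearly all of this sum was Itgax, at 18553 and 19126 in KO, against 20017 and 19851 in WT. Lyz2 (138 and 139 in KO, 91.4 and 74.0 in WT) and Cd68 (191 and 209 in KO, 163 and 176 in WT) lay the other way. Their part in the Cish call was not tested.

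**Figure D3:**
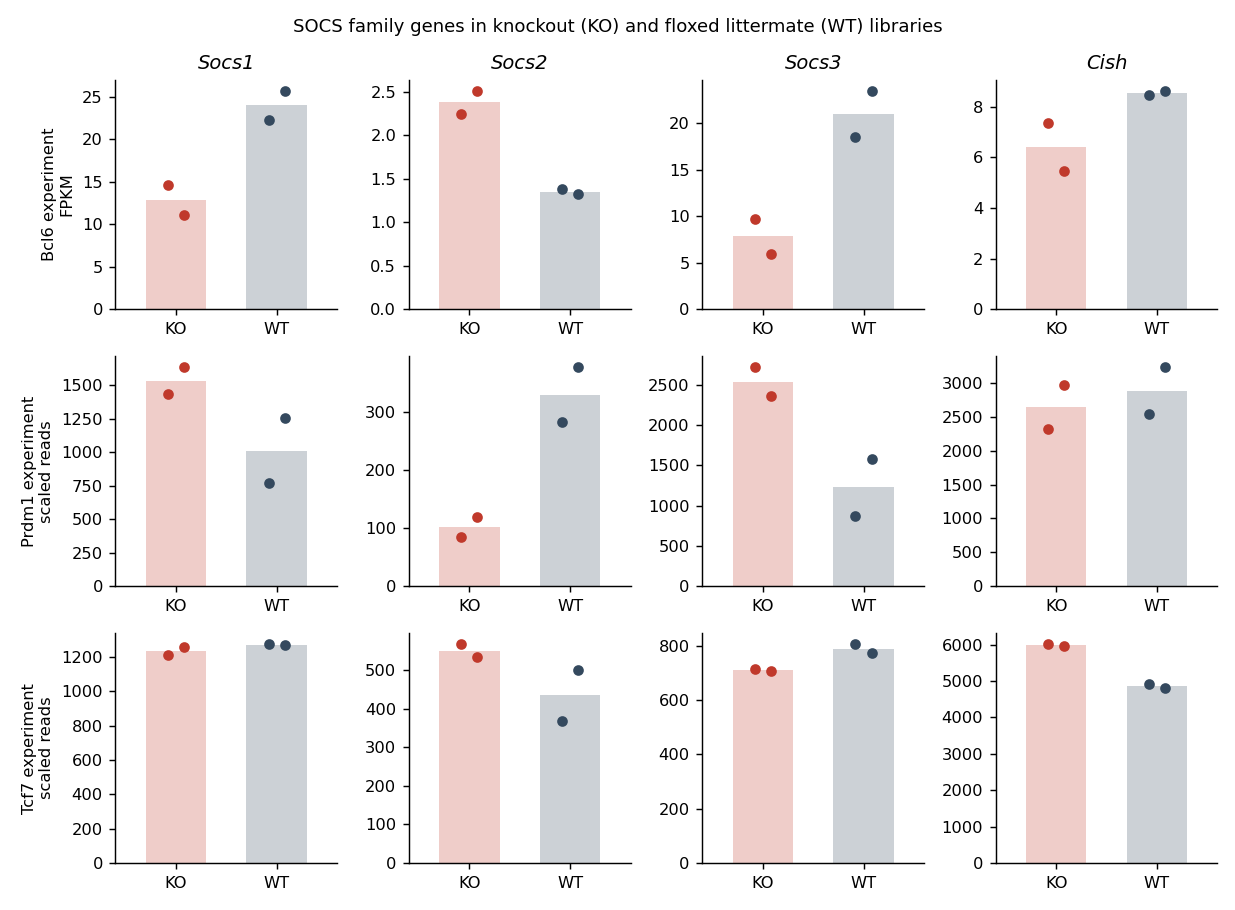
Socs1, Socs2, Socs3 and Cish in the Bcl6 (FPKM), Prdm1 and Tcf7 (scaled reads) experiments, KO libraries left of WT libraries, with a point for each library and a bar at the mean of 2. Socs2 is higher in Bcl6 KO and lower in Prdm1 KO than in WT, Socs3 shows the reverse, and Cish stands apart in Tcf7 KO at 6014 and 5973 against 4906 and 4821 scaled reads.

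The 4 comparisons share no library, and the values of a gene can be set side by side. The log2 fold change of Socs3 was 2.26 in RFP+ against RFP-, -1.34 in Bcl6 KO, 1.11 in Prdm1 KO and -0.15 in Tcf7 KO. For Socs2 the values were -1.63, 0.52, -1.69 and 0.36, and for Socs1 they were 0.79, -0.86, 0.64 and -0.041, in the same order. The added 1 shrinks the Socs2 values of the RFP and Bcl6 experiments, in low FPKM, more than those in scaled reads. The Socs2 ratios of means were 0.0464, 1.76, 0.309 and 1.27, so its RFP and Prdm1 changes were not alike in size. For Socs1, Socs2 and Socs3 the RFP and Prdm1 values had one sign and the Bcl6 and Tcf7 values the other. The Tcf7 value of Socs1 was smaller than its SE of 0.084, so its sign is not resolved. Cish did not share this pattern, with 0.31, -0.38, -0.12 and 0.30 in the same order. Among the values of Socs1, Socs2 and Socs3, only those of the RFP comparison and the Prdm1 value of Socs2 passed the test. For Cish only the Tcf7 value passed. The differences between comparisons were not tested. Among 9030 genes tested in all 4 comparisons, those with the 4 fold changes nearest to Socs3 (Euclidean distance) were Fosb (0.53), which is in the immediate-early list above, and Slc26a11 (0.57). Nearest to Socs2 was AA467197 (0.33), and nearest to Socs1 were Tsc22d1 (0.29) and the chemokine Cxcl10 (0.30). These distances take the fold changes as they are, on the unlike scales of FPKM and scaled reads.

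**Figure D4:**
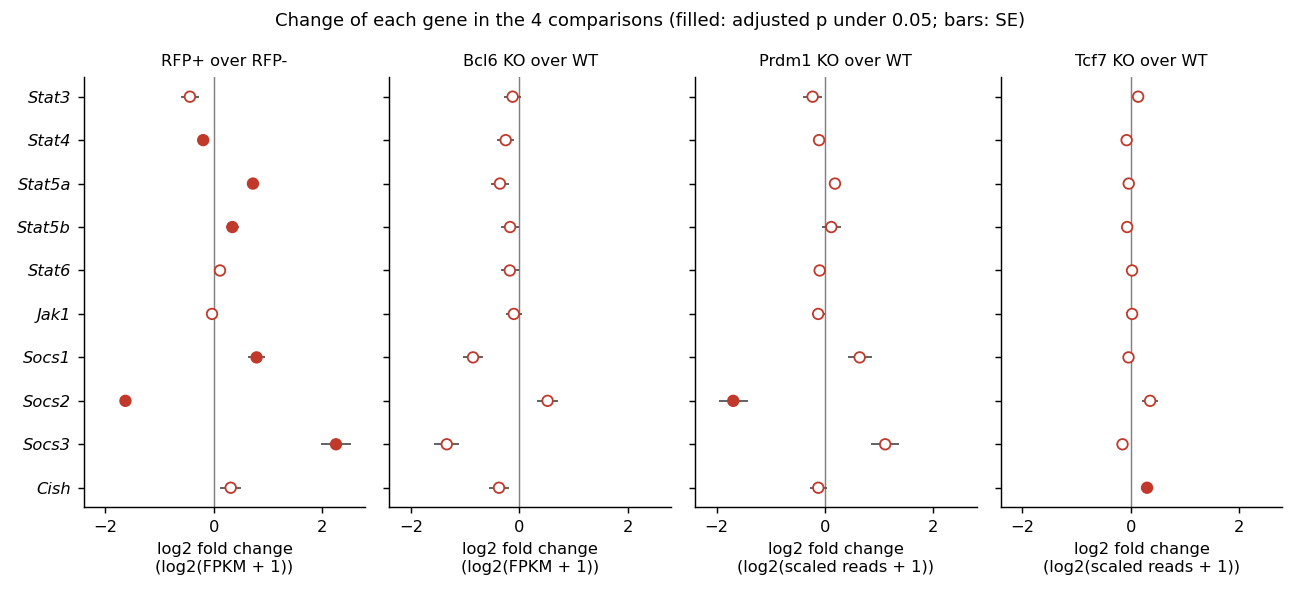
Log2 fold change of each of the 10 genes with its standard error in RFP+ over RFP- and in Bcl6, Prdm1 and Tcf7 KO over WT, on the log2(value + 1) scale; filled points have an adjusted p under 0.05. Socs1 and Socs3 lie above 0 and Socs2 below it in the RFP and Prdm1 panels, and Socs1 and Socs3 lie below 0 and Socs2 above it in the Bcl6 panel. The added 1 shrinks low FPKM values more than scaled reads, so the size of the Socs2 change does not compare between panels.

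Other genes of the pathway, from lists by role, moved unevenly between RFP+ and RFP- cells, where 38.0% of all genes tested were called, 1591 higher and 2098 lower. Of 6 common γ chain family receptor genes tested, 3 were higher and 1 lower (median log2 fold change 0.24, against -0.025 over all genes). Il2rb, the β chain for IL-2 and IL-15, was the lower one, at 255 ± 30.01 FPKM in RFP+ and 851 ± 50.6 FPKM in RFP- cells (log2 fold change -1.74, adjusted p = 5.26e-06). Il7r was at 1.63 ± 0.0756 and 0.122 ± 0.0659 FPKM (1.23, adjusted p = 5.69e-05), and Il4ra, which signals through STAT6, at 55.0 ± 9.87 and 24.8 ± 4.03 FPKM (1.12, adjusted p = 0.000610), in RFP+ and RFP- cells in that order (SD, n = 3). Of 12 other receptor genes tested, 7 were higher and 3 lower (median 0.38). Ifngr2, a chain of the interferon-γ receptor, was at 2.51 ± 0.360 FPKM in RFP+ and 0.231 ± 0.206 FPKM in RFP- cells (log2 fold change 1.52). Il27ra was also higher (0.57), and Il12rb1, a chain for IL-12 and IL-23, was lower (-0.62). Il7r and Ifngr2 passed the filter on low values only through RFP+ cells, so they had to differ to be tested.

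Of 3 cytokine genes tested, Csf2 and Osm were higher in RFP+ cells and Ifng lower. Csf2, which encodes GM-CSF, averaged 13.5 ± 5.45 FPKM in RFP+ and 0.492 ± 0.230 FPKM in RFP- cells (log2 fold change 3.22, adjusted p = 6.24e-05). Osm averaged 1.71 ± 0.339 FPKM in RFP+ and 0.589 ± 0.378 FPKM in RFP- cells (0.79, adjusted p = 0.0121). Both were tested only because RFP+ cells passed the filter, so they had to differ. Ifng averaged 2.74 ± 0.347 and 6.53 ± 3.06 FPKM in RFP+ and RFP- cells (-0.91, adjusted p = 0.0413). Of the other core genes, Irf9 was higher (log2 fold change 0.16) and Tyk2 lower (-0.16), and none of the 4 further SOCS genes, Socs4 to Socs7, was called. Of 13 other negative regulators, 5 were higher and 2 lower (median 0.10), beside 38.0% of all genes called, among them Sh2b3 (0.36) and Ptpn11 (-0.60). Usp18, which restrains type I interferon signalling, was at 2.08 ± 0.294 FPKM in RFP+ and 0.487 ± 0.0981 FPKM in RFP- cells (1.05), and it too passed the filter only through RFP+ cells. Of 18 genes listed as STAT targets, 4 were higher and 9 lower (median -0.23, against -0.025 over all genes): Gzmb (-5.31) and Prf1 (-3.07), the cytotoxic granule genes, were lower and Myc (1.78) was higher. Many of these targets have other regulators, and the list does not measure STAT activity.

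In Bcl6 KO, limma called none of these genes in any of the 7 lists, where it called 0.418% of all genes. In Prdm1 KO, where 6.84% of all genes were called, 1 of 7 common γ chain family receptor genes was called higher, Il9r (log2 fold change 1.17, adjusted p = 0.0162), and 1 lower, Il2rb (-0.99, adjusted p = 0.0204). Ifngr2 was higher (1.85) and Il10ra lower (-1.48) of 12 other receptor genes, and Gzmb (-3.77) and Prf1 (-2.86) were the 2 lower and Lta (2.14) 1 of the 2 higher of 20 target genes. Lta, at 110.1 ± 10.4 scaled reads in KO and 24.2 ± 3.55 in WT, passed the filter of 50 only through KO, so it had to differ to be tested. In Tcf7 KO, where 2.72% of all genes were called, Il2rb was higher (0.41, adjusted p = 0.000169) and Il9r lower (-1.59, adjusted p = 0.0455) of 8 family receptor genes, Il9r having passed the filter only through WT (31.1 ± 2.47 scaled reads in KO and 98.8 ± 36.6 in WT). Il12rb1 was higher (0.22) and Il6st, which encodes gp130, lower (-0.47) of 13 other receptor genes. Of 22 target genes, 5 were higher and none lower (median 0.11, against 0.0018 over all genes), among them Pim2 (0.61), Gzmb (0.54) and Bcl3 (0.66), beside the higher Cish. No core, further SOCS, negative regulator or ligand gene was called by limma in Prdm1 or Tcf7 KO.

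By GENCODE vM21 (GRCm38), all 10 are protein-coding. Socs3 is chr11:117966079-117970047 (minus strand), Socs1 chr16:10782240-10785536 (minus), Socs2 chr10:95385362-95417180 (minus) and Cish chr9:107296026-107302784 (plus). Stat5b, chr11:100780731-100850724 (minus), Stat5a, chr11:100859351-100885169 (plus), and Stat3, chr11:100885098-100939540 (minus), stand side by side. Stat4 is chr1:51987148-52107189 (plus), Stat6 chr10:127642986-127660957 (plus) and Jak1 chr4:101152367-101265282 (minus). The RefSeq windows printed for Socs3 and Cish lie inside these gene intervals, because the GENCODE intervals begin further upstream.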

How the data were processed

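Sorted mouse IELs were profiled by bulk RNA-seq in 20 libraries. Per the labels' protocols, RNA was extracted with MagZol and libraries were made by either of 2 companies. Bowtie2, RSEM, featureCounts (Subread), DESeq2, Trim Galore 0.4.4 and the mm10 build appear in the submitters' processing notes, without roles. The authors deposited FPKM for the RFP, LI and Bcl6 libraries. For the Prdm1 and Tcf7 libraries the deposited values, although named FPKM, are a signal of reads divided by 1 size factor per library: 100% of values above 0 were whole reads (tolerance 0.01). FPKM times GENCODE vM21 exon length gave whole reads for 97.1 to 97.8% of low values (tolerance 0.02), which gave the depths. The design had assumed FPKM throughout, and the filter was set to the signal scale for those tables.

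Each experiment was fitted alone, without covariates, with limma 3.58.1 (R 4.3.3, eBayes with trend) on log2(value + 1), two-sided, with Benjamini-Hochberg adjustment over all genes tested and a threshold of 0.05. A gene was tested if at least n libraries reached 1 FPKM (signal tables: 50), n being the size of the smaller group: 9717 of 12975, 9573 of 13766, 10969 of 13624 and 15210 of 25036 genes in the RFP, Bcl6, Prdm1 and Tcf7 tables. The Stat5a to Stat5b ratio was tested with an exact permutation test (SciPy 1.17.1). Alternatives were another pseudocount, no filter, 3 other scalings, a replicate block, each library left out, and edgeR 4.0.16 and DESeq2 1.42.0 on recovered reads; these count tests were added after seeing the data for the RFP and Bcl6 experiments, as was a crossed block for Bcl6. The fits were tested on simulated data.

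The text names the 10 genes, Bcl6, Prdm1, Tcf7 and Cd160, up to 3 called genes per pathway list and comparison by smallest p, and the 2 nearest genes of the 3 members that moved most in the RFP comparison; some genes that this rule names are not reported here. Marker genes, Fosb, Hspa1a and the immediate-early list were named after their values were seen. Members and lists were chosen with earlier results of these data known.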

Additional observations from a re-analysis of the deposited data

How the results depend on the processing

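With 2 libraries a group, counts of calls in the knockouts moved with the processing. Of the 10 genes, the Bcl6 count was 1 with the replicate block, 2 with a crossed block added after seeing a negative correlation of same-numbered libraries, 2 with DESeq2, and 0 to 3 with a library left out. Over all genes it was 78, 452, 96 and 40 to 1570 under those settings, and 26 with edgeR. The Prdm1 count was 3 with the block and 2 with DESeq2 or equal library totals, and 2 to 3 with a library left out. Over all genes it was 2386 with the block, 1184 with DESeq2 and 595 to 1183 with a library left out. The Tcf7 count was 2 with the block and 0 to 2 with a library left out, and over all genes 977 with the block and 218 to 748. A group left with 1 library was assumed to vary like the other group. On recovered reads, edgeR and DESeq2 called 3791 and 3671 genes in the RFP and 429 and 467 in the Tcf7 experiment, and edgeR 772 in the Prdm1 experiment. The cause of these shifts was not tested.

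Deviations of same-numbered libraries had correlations of -0.23, -0.00027 and -0.33 in the RFP, -0.46 in the Bcl6, 0.53 in the Prdm1 and 0.06 in the Tcf7 experiment. The main fits did not take the numbers as pairs. With 2 libraries a group, crossing the numbers only turns the sign of the correlation. It therefore cannot decide whether the Prdm1 libraries were paired, and the block raised the Prdm1 counts given above. In the RFP comparison the block left 4 of the 10 genes and 2992 of all genes called, without Stat4 and Stat5b, and the other alternatives 4 to 7. The RFP calls of Socs1, Socs3 and Stat5a held under all 14 alternatives, as did that of Socs2, which passed the filter only through RFP- cells and so had to differ to be tested. The 1591 higher and 2098 lower RFP calls became 3300 and 1171 with equal library totals and 2014 and 1747 after quantile normalization. Stat5b lost its call without a filter (adjusted p = 0.0671).

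Direction turned for some genes that were not called. In RFP+ against RFP-, Jak1 was 0.13 with equal totals, 0.042 after quantile normalization and -0.061 to 0.015 with a library left out, positive only without the first RFP- library. In Prdm1 KO with a library left out, Stat5b ran from -0.099 to 0.33 and Cish from -0.30 to 0.053, both turning without the first KO or the second WT library. In Tcf7 KO, Stat6 ran from -0.015 to 0.065, turning without the first KO library, and Jak1 from -0.0063 to 0.058, turning without the second. The Stat5a to Stat5b difference kept its sign in the RFP and Bcl6 experiments, at 0.36 to 0.49 and -0.27 to -0.15. The RFP+ level of Socs2 rests on 15 to 20 reads a library, at depths close to those of the RFP- libraries.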
